A study of Mus musculus with 27 samples.

Results

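A set of 9 genes of complement and of apoptotic cell recognition and removal was followed in tumour-associated macrophages and tumour immune cells of mice. It holds the 3 chains of complement C1q (C1qa, C1qb, C1qc) and the C3a receptor gene C3ar1. The receptor tyrosine kinases Mertk and Axl with their ligand gene Gas6, and the surface receptors Cd93 and Stab1, complete it. The 9 genes were taken as a fixed list of names, by no rule on a measured value, but with earlier results of these data known. All 9 were found among the 48440 gene identifiers of the bulk RNA table and among the genes of both single cell matrices. In the bulk table, 12939 genes passed the filter on low counts and were tested. The tested mice carried a floxed Ogt gene, which encodes the O-GlcNAc transferase, together with the Lyz2-cre transgene (KO), and the mice set against them carried floxed Ogt without Lyz2-cre (WT). Lyz2-cre removes floxed sequence in macrophages, monocytes and neutrophils, and as a knock-in it also disrupts Lyz2. All mice bore tumours of MC38, a mouse colon adenocarcinoma line. Bulk RNA came from tumour-associated macrophages, 3 KO and 3 WT libraries. Single cell RNA came from immune cells that the titles and design text call CD45 cells (a second label field names other CD antigens for some samples), with 2 samples listed per genotype but 1 matrix per genotype. Age and sex of the mice and the sort of the macrophages were not given in the sources used here. Nothing in the labels says that the libraries came from separate animals, so p-values measure the spread between these libraries, which may be technical.

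C1q opens the classical complement pathway by binding immune complexes and dying cells, and tissue macrophages are its main source in the body. The 3 chains assemble together into 1 molecule. Dying cells expose phosphatidylserine, which bridging proteins such as GAS6 link to the TAM receptors MERTK and AXL on phagocytes, a process called efferocytosis. C3AR1 binds the complement fragment C3a. CD93 is a C-type lectin-like glycoprotein of myeloid and endothelial cells, first described as a candidate C1q receptor, and stabilin-1, encoded by Stab1, is a scavenger receptor that binds phosphatidylserine.

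In bulk macrophages, 8 of the 9 members passed the test between KO and WT, 3 higher and 5 lower in KO, against a background of 37.7% of all tested genes called in either direction. Called higher were 18.8% of tested genes (2432 genes) and called lower 18.9% (2442 genes), a split that became 3370 higher and 1757 lower when libraries were scaled by their totals alone. Cd93 rose most (1.86-fold), Stab1 rose 1.25-fold and Axl 1.06-fold. Gas6, C3ar1 and Mertk fell by 0.54, 0.52 and 0.47 on the log2 scale. C1qb and C1qc fell by 0.10 and 0.09, and C1qa, with a log2 fold change of -0.04, did not pass the test. The median log2 fold change of the members was -0.088, beside -0.0013 over all tested genes. All 9 members had KO and WT libraries that did not overlap, as did 46.5% of all tested genes. In bulk RNA, fewer cells of a type and less RNA per cell cannot be told apart.

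**Figure D1:**
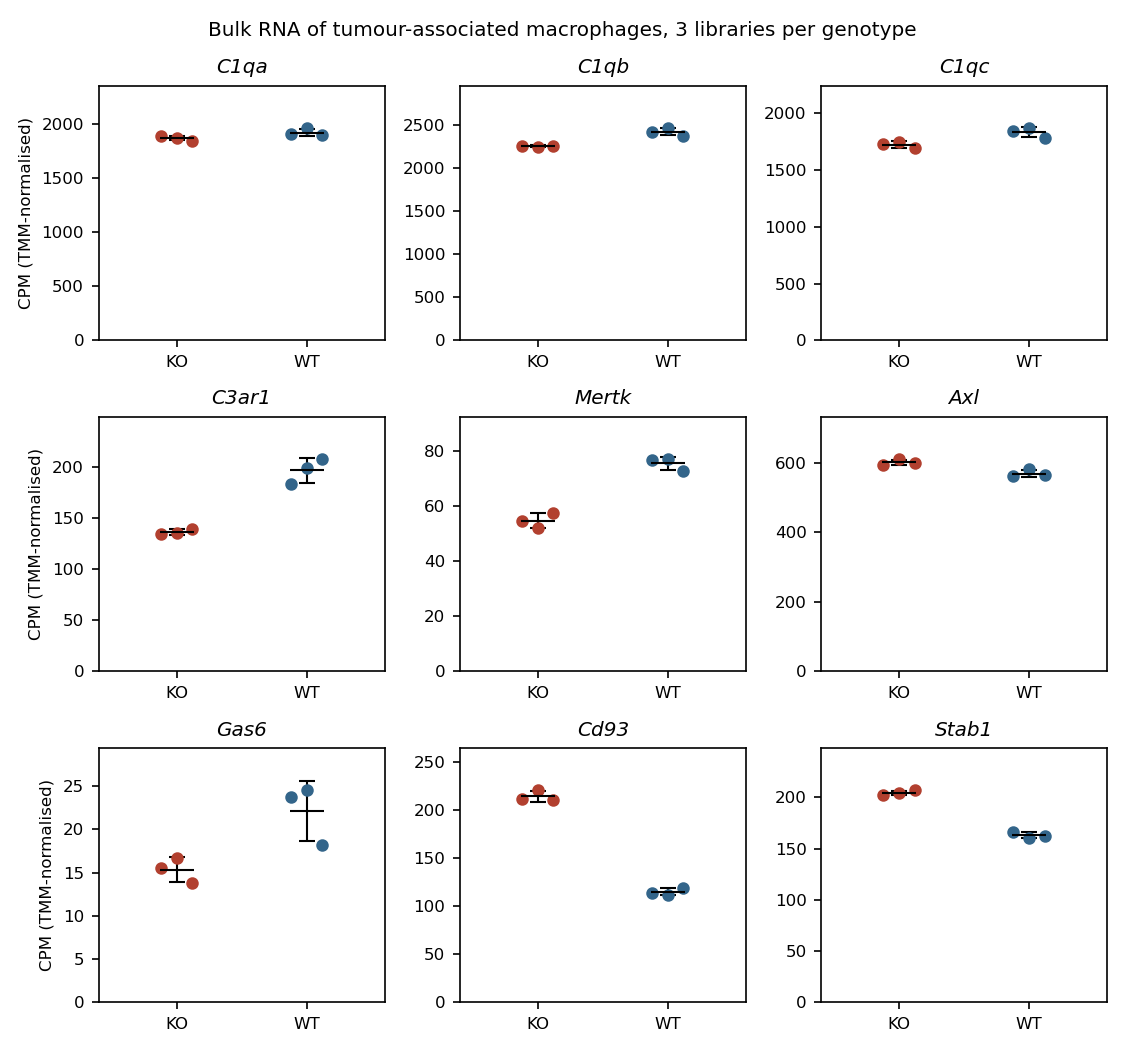
Bulk RNA level of the 9 members as CPM (reads of a gene at equal depth in every library, with TMM factors, linear axes from 0), with 3 KO libraries left and 3 WT libraries right in each panel. Bars show mean and SD. Cd93 stands at 211.1 to 220.6 CPM in KO and 111.9 to 118.9 CPM in WT, while C1qb stands at 2249 to 2261 CPM in KO and 2378 to 2461 CPM in WT.

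The targeted gene and the cre locus were read first as a check of the labels. Ogt had 31.96, 39.13 and 33.04 CPM in KO libraries, against 60.95, 58.67 and 49.18 CPM in WT libraries, a fall of 0.72 on the log2 scale (SE 0.095, edgeR quasi-likelihood adjusted p = 2.978e-09). Which Ogt exons carry the lox sites was not given in the sources used here, and reads outside them may remain. Lyz2 was 46.2-fold lower in KO, and Egr2, whose protein was profiled on chromatin in the same study, fell by 0.90 on the log2 scale. Total counts ran from 7032540 to 32406170 per library. Of 13 macrophage markers all were expressed, with a summed level of 7590 to 7690 CPM in KO and 8260 to 8370 CPM in WT, 6 higher and 7 lower. T cell markers were higher in KO (12 of 13 tested, summed 330 to 353 CPM in KO and 177 to 194 CPM in WT), migratory dendritic cell markers were lower (6 of 7, 265 to 267 CPM in KO and 630 to 648 CPM in WT), and neutrophil markers were mostly lower (6 of 10 lower and 1 higher, 1050 to 1080 CPM in KO and 1490 to 1570 CPM in WT). Of 14 monocyte markers, 8 rose and 3 fell (2190 to 2210 CPM in KO, 2130 to 2150 CPM in WT), among them Ly6c2, 2.73-fold higher, and Nr4a1, 1.35-fold lower. Of 8 cDC1 markers 5 rose (1710 to 1760 CPM in KO, 1260 to 1320 CPM in WT), of 8 cDC2 markers 3 fell (730 to 760 CPM in KO, 1020 to 1030 CPM in WT), and of 6 B cell markers 3 rose and 1 fell (112 to 118 CPM in KO, 54.6 to 57.6 CPM in WT). Their part in the members' changes was not tested.

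The genes of the 3 C1q chains lie next to each other on chromosome 4 of mm10, all on the minus strand: C1qb at chr4:136880129-136886187, C1qc at chr4:136889804-136893065 and C1qa at chr4:136895917-136898803. They were among the highest transcripts of these macrophages. On the scale that divides by exonic length (RPKM), C1qb reached 2070 ± 6.17 in KO and 2220 ± 38.3 in WT, C1qa 1800 ± 20.2 in KO and 1850 ± 32.5 in WT, and C1qc 893 ± 15.8 in KO and 949 ± 22.6 in WT (SD, n = 3 each). C1qa and C1qb exceeded 99.9% of tested genes on that scale. C1qb had 2261, 2249 and 2261 CPM in KO libraries and 2422, 2461 and 2378 CPM in WT libraries, so that every KO library lay below every WT library. The fall was 0.10 on the log2 scale (SE 0.018, edgeR quasi-likelihood adjusted p = 3.44e-06). C1qc had 1730, 1751 and 1691 CPM in KO libraries and 1846, 1867 and 1783 CPM in WT libraries, again without overlap (log2 fold change -0.09, SE 0.020, edgeR quasi-likelihood adjusted p = 0.0002313). C1qa had 1887, 1873 and 1845 CPM in KO libraries and 1908, 1958 and 1894 CPM in WT libraries. Its groups lay close together without overlapping, and its log2 fold change of -0.04 (SE 0.019) missed the threshold (edgeR quasi-likelihood adjusted p = 0.1004). These 3 small differences depend on the scaling: with library totals alone, which moved the median of all tested genes to 0.0857, C1qa came out higher in KO by 0.048 (edgeR quasi-likelihood adjusted p = 0.03361), and C1qb (-0.014) and C1qc (-0.001) were no longer called, at adjusted p = 0.5708 and 0.9747.

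The promoters of C1qb and C1qc are shown because these chains had nearly the same pattern across cell clusters, and that of Axl because it held the only match to the EGR core among the members. RefSeq windows (GRCm38.p6, the build called mm10) run from 250 bases before to 50 bases after the annotated start and were found for 7 of the 9 members, not for C1qa and Cd93. Capitals mark matches, on either strand, to the EGR core GTGGGCG or the PU.1 core GAGGAAG. The C1qb window is chr4:136886151-136886450, that of C1qc chr4:136892865-136893164 and that of Axl chr7:25788684-25788983, all written 5′ to 3′ on the minus strand, the coding strand of each gene.
C1qb: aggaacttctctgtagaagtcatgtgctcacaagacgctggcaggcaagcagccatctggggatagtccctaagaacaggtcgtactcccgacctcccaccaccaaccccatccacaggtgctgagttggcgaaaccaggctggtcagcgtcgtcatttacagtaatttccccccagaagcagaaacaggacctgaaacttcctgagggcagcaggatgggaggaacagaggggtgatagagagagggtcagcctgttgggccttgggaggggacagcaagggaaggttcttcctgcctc
C1qc: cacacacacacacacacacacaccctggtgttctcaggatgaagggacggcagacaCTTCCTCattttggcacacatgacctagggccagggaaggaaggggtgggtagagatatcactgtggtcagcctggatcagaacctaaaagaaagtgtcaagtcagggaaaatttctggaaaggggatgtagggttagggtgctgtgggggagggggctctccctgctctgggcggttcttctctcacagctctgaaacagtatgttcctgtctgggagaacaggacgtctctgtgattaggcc
Axl: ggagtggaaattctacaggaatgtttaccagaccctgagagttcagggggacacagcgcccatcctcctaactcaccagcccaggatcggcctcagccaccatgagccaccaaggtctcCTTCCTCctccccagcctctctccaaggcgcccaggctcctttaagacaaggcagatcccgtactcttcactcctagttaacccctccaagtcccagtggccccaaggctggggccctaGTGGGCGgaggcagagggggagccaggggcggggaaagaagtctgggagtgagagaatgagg
The C1qb window held no match. The C1qc window held the reverse complement of the PU.1 core from base 57, in a window whose RefSeq start lies 151 bases inside the GENCODE gene model. The Axl window held the EGR core from base 239, close to the start, and the reverse complement of the PU.1 core from base 120. The EGR core was found in 1 of 7 member promoters and in 7.97% of all 32851 promoters, and the PU.1 core in 2 of 7 and in 13.6%. A match gives letters in a window and not a bound site.

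C3ar1 (chr6:122847138-122856161, minus strand) had 135, 135.8 and 140 CPM in KO libraries and 184, 199.3 and 207.9 CPM in WT libraries. All KO libraries lay below all WT libraries, a 1.44-fold lower level (log2 fold change -0.52, SE 0.048, edgeR quasi-likelihood adjusted p = 6.207e-15). Among TAM receptors, Mertk (chr2:128698956-128802894, plus strand) had 54.62, 51.78 and 57.31 CPM in KO libraries and 76.69, 76.79 and 72.75 CPM in WT libraries. It was 1.38-fold lower in KO (log2 fold change -0.47, SE 0.076, edgeR quasi-likelihood adjusted p = 5.589e-07). Axl (chr7:25757273-25788705, minus strand) had 594.6, 610.2 and 599.7 CPM in KO libraries and 561.5, 582.5 and 564.7 CPM in WT libraries. The groups did not overlap, but the rise of 0.08 on the log2 scale (SE 0.027, edgeR quasi-likelihood adjusted p = 0.01809) was lost when KO replicate 2, WT replicate 1 or WT replicate 3 was left out (adjusted p = 0.06277, 0.09781 and 0.06664). Per length, Axl stood at 120 ± 1.58 RPKM in KO and 113 ± 2.25 RPKM in WT, and Mertk at 12.6 ± 0.638 RPKM in KO and 17.4 ± 0.531 RPKM in WT (SD, n = 3 each).

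Gas6 (chr8:13465374-13494490, minus strand), the ligand of both receptors, was the lowest member. It had 15.58, 16.64 and 13.81 CPM in KO libraries and 23.77, 24.51 and 18.15 CPM in WT libraries. Only WT replicate 3 came near the KO libraries, and the fall of 0.54 on the log2 scale (SE 0.141, edgeR quasi-likelihood adjusted p = 0.001538) ranged from 0.47 to 0.65 with 1 library left out. Pros1, the other known TAM ligand gene, went the other way, with 16.7 ± 1.66 CPM in KO and 10.4 ± 1.66 CPM in WT (SD, n = 3 each; log2 fold change 0.68, SE 0.164, edgeR quasi-likelihood adjusted p = 0.0005207).

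Cd93 (chr2:148436640-148443563, minus strand) had 211.2, 220.6 and 211.1 CPM in KO libraries and 114.1, 111.9 and 118.9 CPM in WT libraries, the widest gap among the members (log2 fold change 0.90, SE 0.048, edgeR quasi-likelihood adjusted p = 2.834e-26). Stab1 (chr14:31139013-31168641, minus strand) had 202.9, 204.1 and 206.9 CPM in KO libraries and 166.4, 160.7 and 162.3 CPM in WT libraries (log2 fold change 0.32, SE 0.044, edgeR quasi-likelihood adjusted p = 5.591e-09). Both genes are also known from endothelial cells. Of the 6 endothelial markers tested, 4 rose and none fell, with 181 to 198 CPM summed in KO and 136 to 145 CPM in WT, namely Eng, Pecam1, Kdr (13 ± 1.42 CPM in KO, 5.93 ± 0.779 CPM in WT) and Flt1 (14.2 ± 1.64 CPM in KO, 9.03 ± 1.02 CPM in WT). Emcn and Tie1 were at 0 in all libraries, and Cdh5 was at 0.919 ± 0.124 CPM in KO and 1.17 ± 1.06 CPM in WT (SD, n = 3 each). The part of endothelial cells in the rise of Cd93 and Stab1 was not tested. Counting took no account of strand, and Nt5dc2 on the opposite strand shares the end of the Stab1 gene model. The Nt5dc2 model reaches base 31139121, just inside that of Stab1, whose exonic length is 10288 bases. The part of Nt5dc2 reads in the Stab1 level was not tested. Nt5dc2 also rose, by 0.55 on the log2 scale. Gm14011 overlaps Mertk and Tmem255b overlaps Gas6 in the same way.

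Ordered by RPKM, KO macrophages had C1qb, C1qa, C1qc, Axl, Cd93, C3ar1, Stab1, Mertk and Gas6, where Cd93 (32.1 ± 0.817) and C3ar1 (31.8 ± 0.623) did not differ beyond their SD. In WT macrophages C3ar1 (45.8 ± 2.81) followed Axl, and Mertk (17.4 ± 0.531) and Cd93 (17.2 ± 0.535) came next without differing beyond their SD, before Stab1 (15.9 ± 0.282) and Gas6 (8.69 ± 1.36).

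Other genes of the pathway moved in both directions, and none of 5 lists, which leave the members out, moved 1 way. Of 23 complement component genes, 11 were tested, 5 rose and 2 fell, with a median log2 fold change of 0.144. C4b (158 ± 2.64 CPM in KO, 107 ± 8.1 CPM in WT) and C4a, near-identical copies whose reads cannot be assigned with certainty, both rose, as did C1ra, a protease of the C1 complex. C1rb (18.9 ± 1 CPM in KO, 15.8 ± 2.77 CPM in WT) was not called. Properdin, encoded by Cfp, fell (333 ± 0.736 CPM in KO, 440 ± 13.1 CPM in WT). Masp1 was at 0 in all WT libraries and at 1.04 CPM in KO, at least 4.61-fold higher against a floor of 3 read pairs (6 counts) over the WT group. C1s1, which encodes the other C1 protease, was below the filter. Of 15 complement receptor and regulator genes, 11 were tested, 2 rose and 4 fell, and with library totals alone 4 rose and 2 fell. Without KO replicate 1, KO replicate 2, WT replicate 1 or WT replicate 3, and without a filter on low counts, 2 fell. Itgam (91.9 ± 2.15 CPM in KO, 140 ± 7.6 CPM in WT) and Itgax (1090 ± 24 CPM in KO, 999 ± 38.1 CPM in WT), the alpha chains of the iC3b-binding integrins, went opposite ways, and C5ar1, the receptor of C5a, fell by 0.30 on the log2 scale. Itgb2, their common beta chain, rose by 0.17.

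Of 26 other efferocytosis receptor and bridge genes, 20 were tested, 7 rose and 9 fell (median log2 fold change -0.016). The phosphatidylserine receptor gene Havcr2 (200 ± 8.02 CPM in KO, 141 ± 2.65 CPM in WT) and the scavenger receptor gene Cd36 (138 ± 2.5 CPM in KO, 79.7 ± 4.95 CPM in WT) rose. Cd14 (1360 ± 22.5 CPM in KO, 1990 ± 39 CPM in WT) and Anxa1 (132 ± 3.54 CPM in KO, 229 ± 3.57 CPM in WT) fell. Tyro3, the third TAM receptor gene, was below the filter, at 0.36 CPM in KO and 0.11 CPM in WT. Of 30 genes of the engulfment machinery and of the cholesterol response that follows uptake, 28 were tested, 9 rose and 5 fell (median 0.083). Without KO replicate 2 or KO replicate 3, 2 and 3 fell, and with library totals alone 13 rose and 1 fell. Abcg1, a cholesterol exporter gene, rose by 0.71 and Dock2, a Rac activator gene, by 0.49, while the glucose transporter gene Slc2a1 fell by 0.38 on the log2 scale. All 15 regulator genes of resident macrophages were tested, 3 rose and 6 fell. Maf had 59.7 ± 1.88 CPM in KO and 56.57 ± 1.45 CPM in WT (SD, n = 3 each) and was not called. Cebpb, Klf4 and Egr2 fell by 2.28, 0.71 and 0.90.

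**Figure D2:**
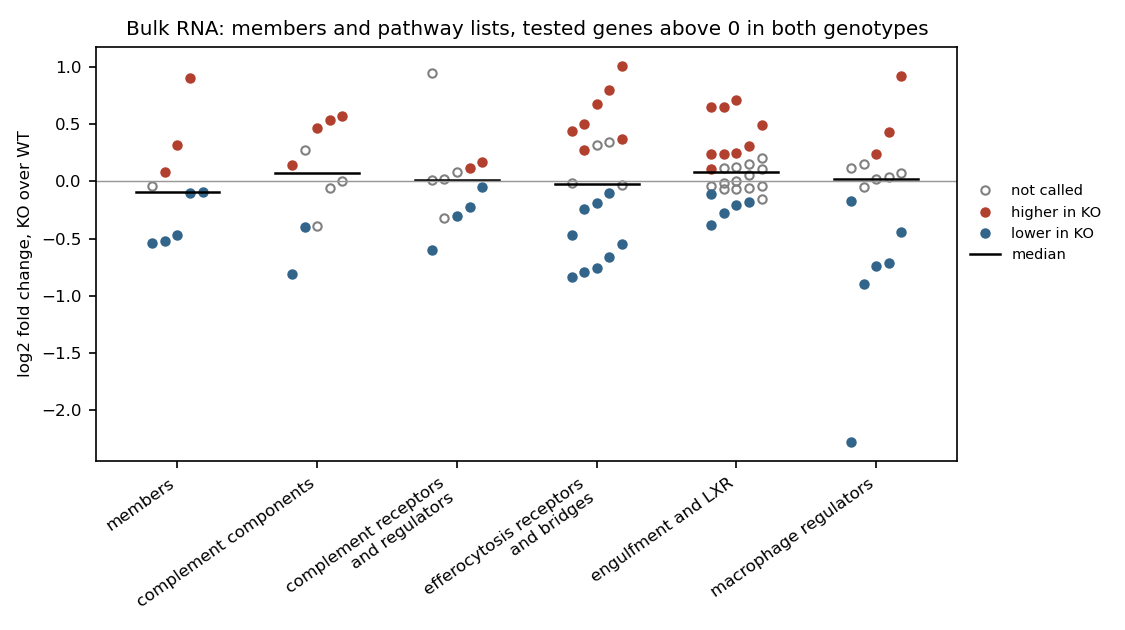
Log2 fold change (KO over WT) in bulk RNA of the tested members and of the tested genes of 5 pathway lists, 1 point per gene, coloured where the gene was called higher or lower in KO and open where not called, with the median of each list as a line. Masp1, at 0 in WT, is left out of points and median, and all 6 groups hold points on both sides of 0.

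In the single cell matrices, 9767 KO and 9712 WT cells were kept, with medians of 5807 UMIs (distinct transcript molecules) in KO and 5579 UMIs in WT cells, and formed 23 clusters when the 9 members were left out of the clustering genes. The cell barcodes kept from the 2 matrices had 23 in common. Macrophage-like cells, 2008 in KO and 2024 in WT, were clusters 6 (led by Ccl12, Vcam1 and Cadm1), 11 (Htr7, Creb5 and Rnf217), 13 (Pf4, Arg1 and Ccl7) and 14 (Ccl12, Cd63 and Cox4i2). Monocyte-like cells, 662 in KO and 640 in WT, were cluster 4 (Chil3, Mgst1 and Ly6a2). Cluster 5 (Ccl24, Mmp12 and Mgl2) scored highest for macrophages and cluster 12 (the interferon genes Ifit3 and Ifit2) for monocytes, but both stayed unnamed. With 1 matrix per genotype there is no test, and the 95% intervals given for levels and ratios cover counting error only.

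The C1q chains were concentrated in macrophages. Macrophage-like cells held 77.9% of C1qa UMIs in KO and 69.9% in WT, while being 20.6% of KO and 20.8% of WT cells. In both genotypes C1qa was highest in cluster 14 (4140 CPM in KO, 3580 CPM in WT). That cluster held 258 cells at a median of 2393.5 UMIs per cell, the lowest depth among macrophage-like clusters. Then came cluster 6 (3090 CPM in KO, 2700 CPM in WT) and cluster 5 (1160 CPM in KO, 1050 CPM in WT). The next places changed with genotype, since cluster 13 stood above cluster 11 in KO (689 CPM in cluster 13, 551 CPM in cluster 11) and below it in WT (354 CPM in cluster 13, 828 CPM in cluster 11). C1qb and C1qc had the same order as C1qa in each genotype. After thinning each cell to 2000 UMIs, a C1q UMI was found in 98.4% of KO and 97.3% of WT cells of cluster 6, but in 50.6% of KO and 57.9% of WT cells of cluster 11. Without thinning these shares were 99.4% of KO and 99.6% of WT cells in cluster 6, and 58.1% of KO and 63.1% of WT cells in cluster 11. T cell-like cells, which do not make C1q, had a C1q UMI in 7.0% of KO and 5.58% of WT cells after thinning (18.3% of KO and 16% of WT cells before it, at median depths of 5758 and 5183 UMIs), and near-empty barcodes of at most 100 UMIs held 494 CPM of C1qa in KO and 350 CPM in WT, so the free RNA of these tumours was rich in C1q.

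Monocyte-like cells had a C1q UMI in 11.1% of KO and 9.11% of WT cells after thinning (21.5% of KO and 18% of WT cells before it), above the T cell-like share. Their C1q level had a counting interval from 92.1 to 111 CPM in KO and from 99.5 to 121 CPM in WT. In T cell-like cells the level was 35.1 CPM in KO and 28.4 CPM in WT. Neutrophil-like cells had 103 CPM of C1q in KO and 119 CPM in WT, with intervals that overlap those of monocyte-like cells. After thinning, 12.7% of KO and 10.2% of WT neutrophil-like cells had a C1q UMI, so this level was not particular to monocyte-like cells. The proportions of the chains were set beside those in the free RNA. C1qb made up 53.3% of C1q UMIs in KO and 54.1% in WT monocyte-like cells, against 39.4% in KO and 42.9% in WT near-empty barcodes, and 38.0% in KO and 37.8% in WT T cell-like cells. The C1qb share was 35% in KO and 38.3% in WT cells of cluster 6, and 48.2% in KO and 45.9% in WT cells of cluster 11. In neutrophil-like cells it was 40.2% in KO and 47.1% in WT. Where the C1q UMIs of monocyte-like and neutrophil-like cells came from was not tested.

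**Figure D3:**
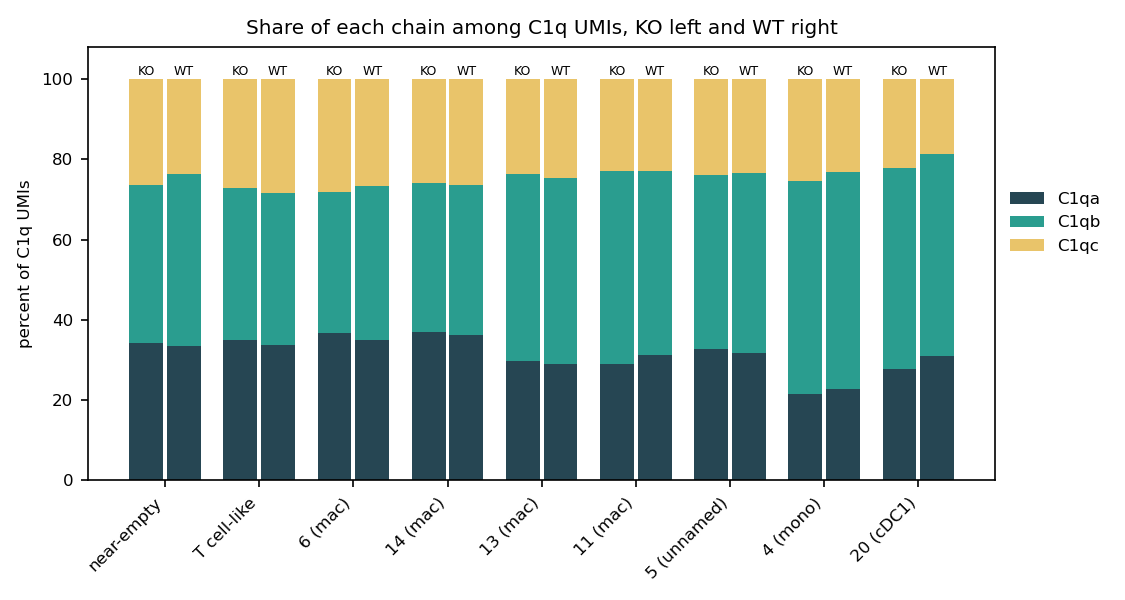
Share of C1qa, C1qb and C1qc among all C1q UMIs (percent) in near-empty barcodes, T cell-like cells and 7 myeloid clusters, KO left and WT right in each pair. The C1qb share is highest in monocyte-like cells (53.3% in KO, 54.1% in WT) and lowest in cluster 6 (35% in KO) of the groups drawn.

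Between genotypes the C1q chains moved in opposite directions in different macrophage clusters. Summed over the 3 chains, cluster 13 had 2310 CPM in KO and 1220 CPM in WT, a ratio of 1.90 (95% interval 1.83 to 1.97), and cluster 11 had 1900 CPM in KO and 2640 CPM in WT, a ratio of 0.719 (0.702 to 0.736). Cluster 6 (8380 CPM in KO, 7720 CPM in WT, ratio 1.09) and cluster 14 (11200 CPM in KO, 9860 CPM in WT, ratio 1.14) differed less. In unnamed cluster 5 the ratio was 1.07 and in cluster 12 it was 0.868. In monocyte-like cells it was 0.923 (0.807 to 1.06), an interval that includes 1, and over the alternative filters and clusterings it ran from 0.556 with doublets kept to 1.19 with the members kept in the clustering. Each chain followed its sum in clusters 11 and 13: the ratios of C1qa, C1qb and C1qc were 1.94, 1.91 and 1.81 in cluster 13 and 0.665, 0.754 and 0.722 in cluster 11.

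Over all macrophage-like cells the summed C1q level was 4730 CPM in KO and 3680 CPM in WT, a ratio of 1.28 (1.27 to 1.30), which is higher than the ratio in 3 of its 4 clusters. The make-up of the class differed: cluster 6, the deepest of the class at a median of 17659 UMIs per cell, was 15.3% of macrophage-like cells and 37.9% of their UMIs in KO, against 11.0% of cells and 22.6% of UMIs in WT, and it supplied 67.1% of the class's C1q UMIs in KO and 47.3% in WT. With each cell weighted equally, the ratio was 1.18. The bulk macrophages, a different preparation, gave no rise of any chain under TMM scaling.

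**Figure D4:**
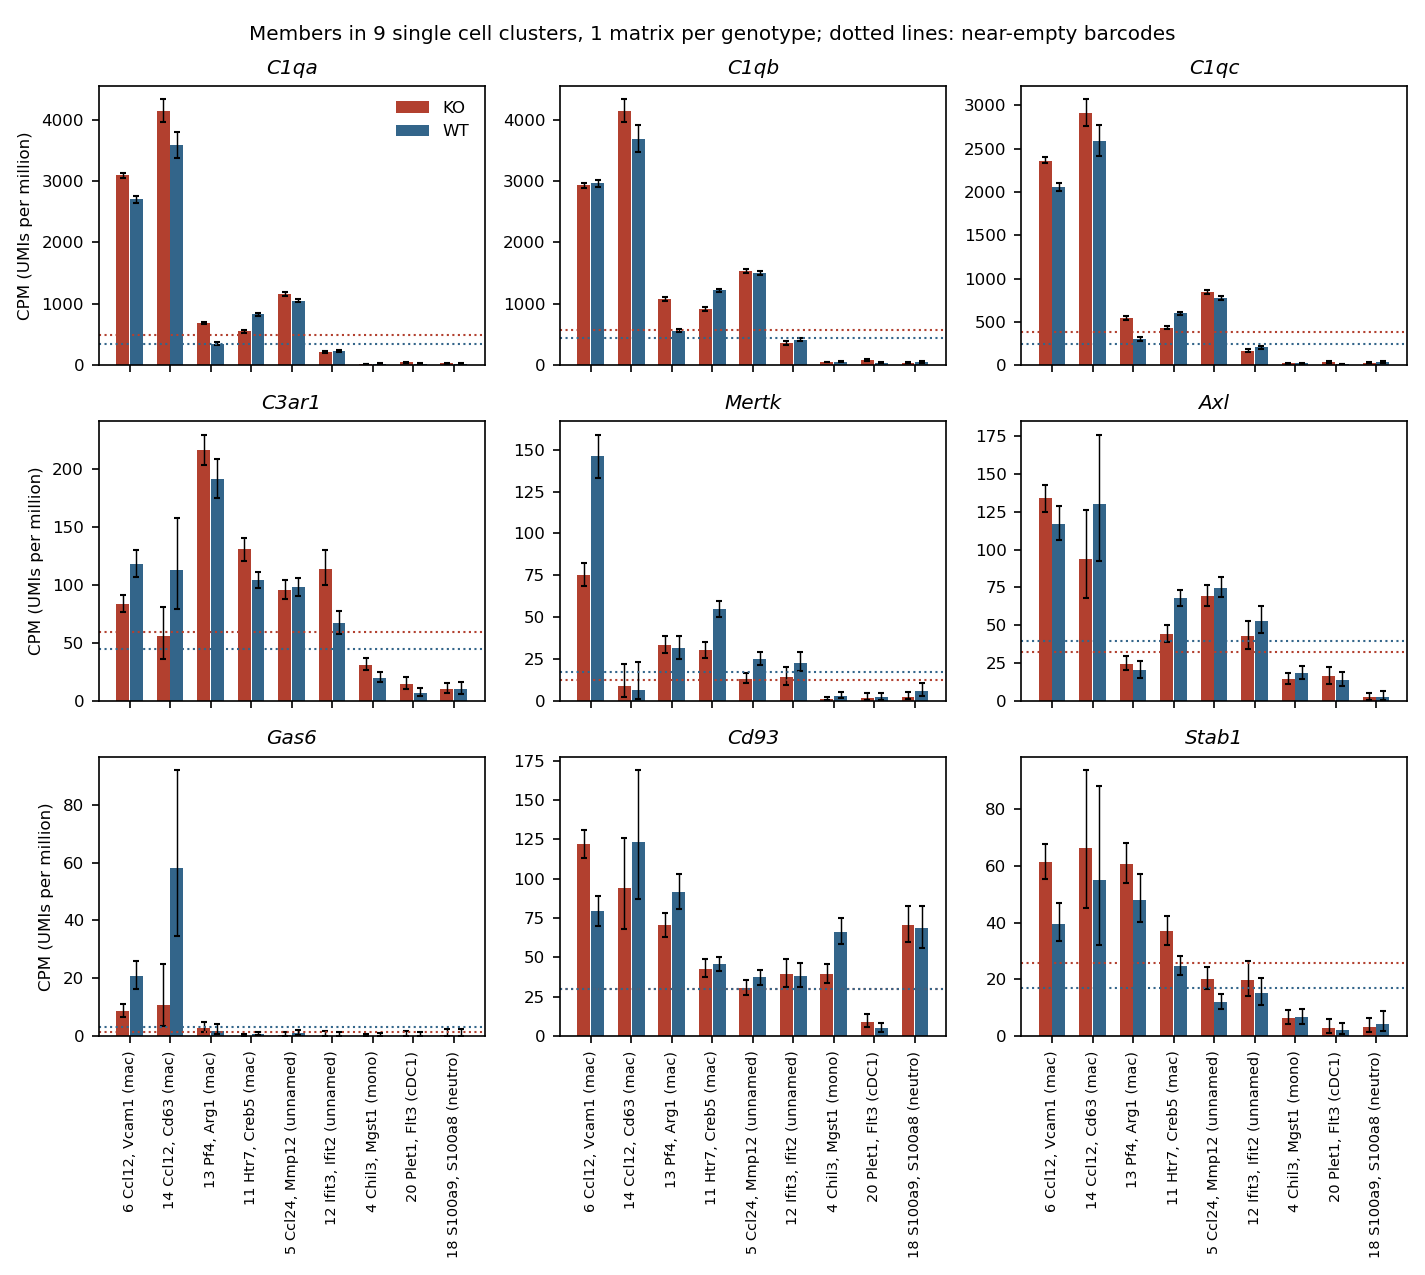
Level of each member as CPM (a gene's UMIs scaled to a common total, linear axes) in 9 single cell clusters named by number and 2 leading genes, KO bars left and WT bars right, with 95% Poisson intervals, and dotted lines at the level in near-empty barcodes of each genotype. C1q is highest in clusters 14 and 6, C3ar1 in cluster 13, Mertk in cluster 6 and Gas6 in clusters 14 and 6, while Cd93 extends to monocyte-like and neutrophil-like cells.

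C3ar1 had another order than C1q. It was highest in cluster 13 in both genotypes (217 CPM in KO, 192 CPM in WT). In KO, cluster 11 (131 CPM) and cluster 12 (114 CPM) followed, with overlapping intervals, then clusters 5 (95.9 CPM), 6 (83.7 CPM) and 14 (55.5 CPM). In WT, clusters 6 (118 CPM), 14 (113 CPM) and 11 (104 CPM) followed, with overlapping intervals, then clusters 5 (97.9 CPM) and 12 (67.2 CPM). It was lower in KO in cluster 6 (ratio 0.710, 0.623 to 0.809) and cluster 14 (ratio 0.490, 0.283 to 0.837). It was higher in KO in cluster 13 (ratio 1.13, 1.02 to 1.26), cluster 11 (ratio 1.26), cluster 12 (ratio 1.69) and monocyte-like cells (31.2 CPM in KO, 19.8 CPM in WT, ratio 1.57, 1.18 to 2.10). After thinning, however, 4.92% of KO and 5.04% of WT monocyte-like cells had a C3ar1 UMI. Before thinning these shares were 14.8% of KO and 9.22% of WT cells. T cell-like cells held 1.53 CPM of C3ar1 in KO and 1.13 CPM in WT, far below the monocyte-like levels, and near-empty barcodes held 59.1 CPM in KO and 44.8 CPM in WT. Over macrophage-like cells the ratio was 1.10 (1.03 to 1.17), where the bulk level was 1.44-fold lower in KO.

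Mertk was lower in KO in macrophage-like clusters 6 and 11 and in unnamed clusters 5 and 12. Cluster 6 had 75.2 CPM in KO and 146 CPM in WT (ratio 0.515, 0.454 to 0.585), cluster 11 had 160 UMIs in KO and 484 UMIs in WT (0.551), cluster 5 had 13.1 CPM in KO and 24.8 CPM in WT (0.528), and cluster 12 had 14.2 CPM in KO and 22.8 CPM in WT (0.623, 0.386 to 0.983). NK cell-like cells held 0.309 CPM of Mertk in KO and 0.653 CPM in WT, and near-empty barcodes 12.5 CPM in KO and 17.4 CPM in WT. The Mertk ratio was also below 1 in T cell-like cells (6 UMIs in KO, 21 UMIs in WT, ratio 0.222, 0.0732 to 0.568). In fibroblast-like cells it was 0.355 (0.122 to 0.854), on 6 UMIs in KO and 34 UMIs in WT. The fall was thus not particular to myeloid cells. In cluster 13 the levels were 33.1 CPM in KO and 31.2 CPM in WT, with an interval of the ratio from 0.811 to 1.40. In monocyte-like cells Mertk was near its detection limit, with 4 UMIs in KO and 11 UMIs in WT. Axl had 134 CPM in KO and 117 CPM in WT in cluster 6 (ratio 1.14, 1.02 to 1.29), beside 93.9 CPM in KO and 130 CPM in WT in cluster 14, whose intervals overlap those of cluster 6 in each genotype. It was lower in KO in cluster 11 (43.9 CPM in KO, 67.9 CPM in WT, ratio 0.647), and over macrophage-like cells had a ratio of 1.03 with an interval from 0.95 to 1.12, which became 0.777 (0.699 to 0.863) with a looser cell filter. Cluster 13 had 24.4 CPM of Axl in KO and 20.2 CPM in WT. Monocyte-like cells had 14.2 CPM in KO and 18.1 CPM in WT. T cell-like cells had 12.6 CPM of Axl in KO and 16.8 CPM in WT, with intervals that overlap those of monocyte-like cells. NK cell-like cells had 2.68 CPM in KO and 3.35 CPM in WT, and near-empty barcodes 32 CPM in KO and 39.5 CPM in WT.

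Gas6 came mostly from clusters 6 and 14, which held 67.2% and 12.2% of its UMIs over both genotypes and 2.73% and 1.32% of cells. Cluster 6 had 55 UMIs or 8.59 CPM in KO and 72 UMIs or 20.7 CPM in WT (ratio 0.415, 0.287 to 0.597). Cluster 14 had 5 UMIs or 10.7 CPM in KO and 18 UMIs or 58.3 CPM in WT (ratio 0.183, 0.0531 to 0.512). No Gas6 UMI was found in monocyte-like cells of either genotype, which allows up to 0.678 CPM in KO and 0.763 CPM in WT.

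Cd93 extended to neutrophil-like and monocyte-like cells. Cluster 6 led in KO, with cluster 14 next (93.9 CPM, with an interval that overlaps it), while in WT cluster 14 (123 CPM) stood first and its interval overlapped those of clusters 13 and 6. It was higher in KO in cluster 6 (122 CPM in KO, 79.1 CPM in WT, ratio 1.54, 1.34 to 1.77), but lower in KO in cluster 13 (70.3 CPM in KO, 91.4 CPM in WT, ratio 0.770) and in monocyte-like cells (39.3 CPM in KO, 66.1 CPM in WT, ratio 0.595, 0.488 to 0.723). In neutrophil-like cells it had 70.4 CPM in KO and 68.4 CPM in WT. The ratio of 1.30 over macrophage-like cells was 1.01 with each cell weighted equally. Stab1, in contrast, was higher in KO in clusters 6, 13, 11 and 5, with ratios of 1.55, 1.26, 1.49 and 1.71, each with an interval above 1. In cluster 14 (66.2 CPM in KO, 55.1 CPM in WT) and in monocyte-like cells (6.33 CPM in KO, 6.61 CPM in WT) the interval included 1. Near-empty barcodes held 25.9 CPM of Stab1 in KO and 17 CPM in WT.

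**Figure D5:**
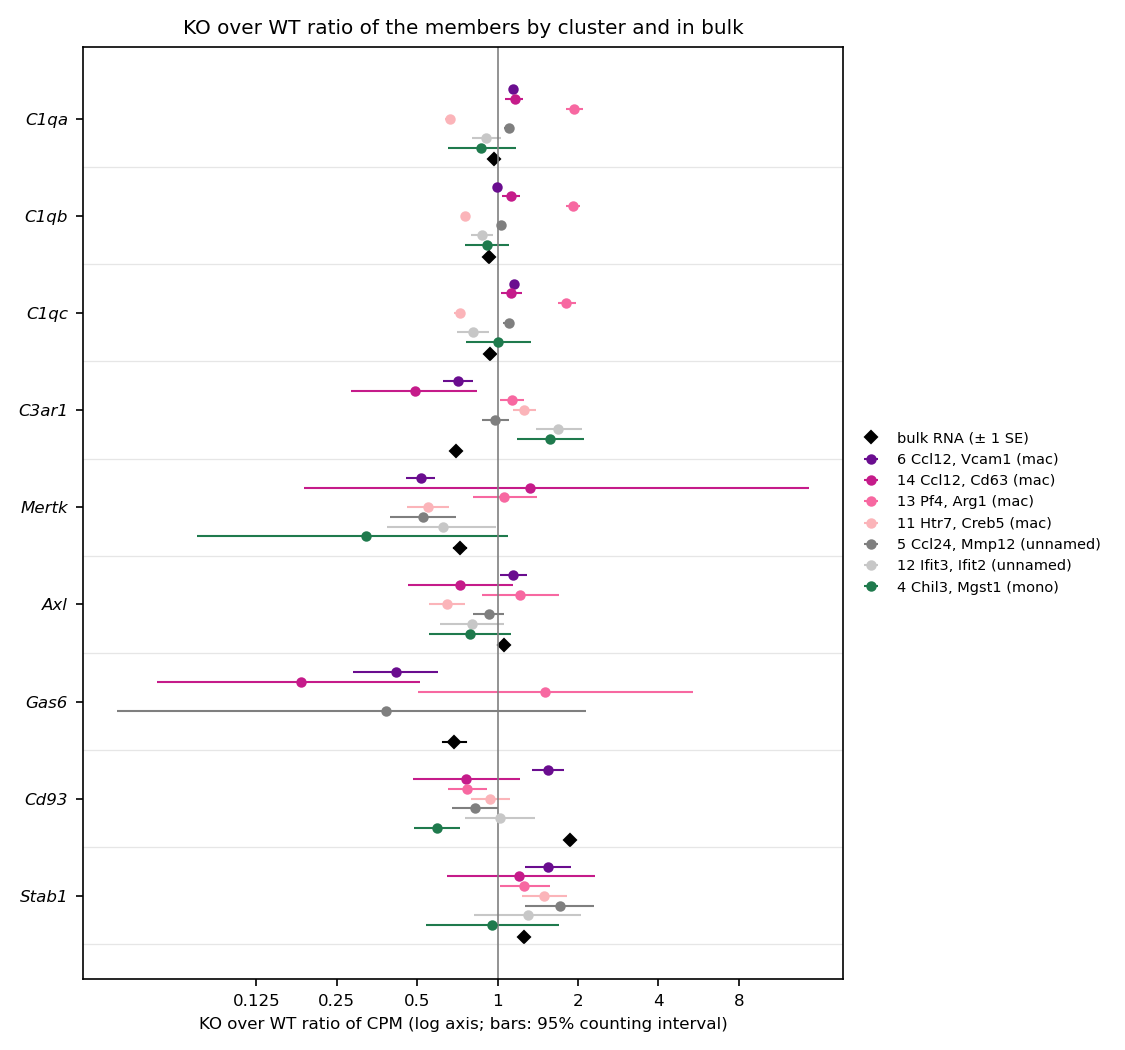
KO over WT ratio of each member (log axis) in 7 myeloid clusters with 95% counting intervals, and in bulk macrophages as a black diamond with 1 SE. Mertk and Gas6 lie mostly left of 1, and Stab1 right of 1 except in cluster 4 (0.957). C1q lies right of 1 in cluster 13 and left of 1 in cluster 11, and for Cd93 cluster 6 and bulk lie right of 1.

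Across the 23 clusters, on log2(CPM + 5) with both genotypes summed, the 3 chains had nearly 1 pattern, with Pearson's r from 0.992 to 0.995, while r between C1qa and the other members ran from 0.750 for Gas6 to 0.919 for C3ar1. These points share libraries, depth and free RNA, and r is given as a description. The genes closest to C1qa and C1qc were Mmp12, Prxl2b and Ccl12, and those closest to C1qb were Mmp12 (r = 0.975), Mrc1 and Prxl2b. C3ar1 was closest to Dab2, Cebpa and Pla2g4a, Mertk to Ksr2, Gm56768 and Plau, and Axl to Inppl1, Usf1 and Gm56768. Gas6 was closest to Fxyd2, Hebp1 and Gm48293, Cd93 to Gm5150, Fcgr3 and C5ar1, and Stab1 to Gm28694, Ccl12 and Etv5. Within macrophage-like cells thinned to 2000 UMIs, r between single chains was 0.772 to 0.806 in KO and 0.764 to 0.770 in WT.

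No member had an EGR2 peak or an ATAC region within 1 kb of its start. Few tested genes did: 0.788% for the EGR2 KO list, 1.12% for the EGR2 WT list, and 4.05% and 5.02% for ATAC regions named after KO and WT, so the lists hold few promoters and an absent region does not show closed chromatin. Over a gene or within 10 kb of it, 4 of the 9 members had a peak or region in any list. The EGR2 KO list, with 1 member hit, had a peak at chr4:136904081-136904581, before the start of C1qa and low in the authors' score (percentile 1.57 of its list), and 14.7% of tested genes had such a peak. The EGR2 WT list hit no member, and 17.1% of tested genes. C3ar1 had 3 ATAC regions named after WT and 1 named after KO (chr6:122849786-122850286), Mertk had 2 named after KO, the higher at chr2:128785567-128786067 (percentile 95.6), and Stab1 had 1 named after KO and 2 named after WT. In all, 3 members had a region named after KO, as did 34.9% of tested genes, and 2 had one named after WT, as did 44.2%. The name of a region does not say that it was absent in the other genotype, and no list carries replicates.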

How the data were processed

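The members and the gene lists were chosen with earlier results of these data known. Bulk counts were deposited as raw counts per gene, made with featureCounts 2.0.6 on mm10 with GENCODE vM10, per the file headers. Each read of a pair was counted, strand was ignored and multi-mapped reads were left out. Of 48440 gene IDs, 99.2% had a symbol. Single cell matrices hold deposited counts of UMIs for all barcodes, from Cell Ranger 8.0.1 per the submitters' processing notes. Each peak carries the authors' score in the deposited lists, with 1 list per genotype for EGR2 and 1 merged list for ATAC, whose regions are 501 bp wide and named after a genotype. The aligner and the peak caller were not given in the sources used here.

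Bulk counts were filtered with filterByExpr, scaled by TMM and tested with edgeR 4.0.16 (quasi-likelihood, R 4.3.3) on 3 KO and 3 WT libraries, with Benjamini-Hochberg adjustment over all 12939 tested genes at 0.05. DESeq2 1.42.0, limma-voom (limma 3.58.1), RLE size factors, library totals, no filter, read pairs, a replicate block and leaving out each library were alternatives. The replicate numbers did not pair the libraries: the correlations of same-numbered deviations were -0.001, 0.002 and 0.009. Steps across many genes were tested on simulated data.

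The cell filter asked for 500 genes and 1000 UMIs or more and allowed mitochondrial UMIs up to 10%. Scrublet removed 3.163% of KO and 4.906% of WT cells as doublets, and scanpy 1.11.5 clustered them (2000 variable genes, 30 components, 15 neighbours, Leiden resolution 1). A cluster was named where its marker score led the next by at least 0.05, at least 3 markers were detected in 20% of its cells, no other class had more markers among its 10 leading genes, and a cluster of low depth had a marker there. Intervals are exact (Poisson, conditional binomial or Clopper-Pearson, 95%) and cover counting error only. A count of 0 was read against a floor of 3 UMIs. Likeness was Pearson's r over genes with at least 100 UMIs.

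Named are the members, Ogt, Lyz2 and Egr2, up to 4 called genes per pathway list by adjusted p, the 3 marker genes per list with the highest CPM, the 3 genes most like each member and the leading genes of clusters. Pros1, Tyro3, C1rb, C1s1, Masp1, Cdh5, Kdr, Flt1, Emcn, Tie1, Ly6c2, Nt5dc2 and Maf were named after their values were seen. Chromatin samples that were in no list used above were not analysed here. The values of 1 regulator gene are not reported here.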

Additional observations from a re-analysis of the deposited data

Results flagged for a closer look

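The KO over WT ratios of 6 members and of the C1q sum had counting intervals on opposite sides of 1 in different macrophage-like or monocyte-like single cell clusters. Each genotype had 1 matrix, so the differences between clusters were not tested. C1qa had a ratio of 1.94 in cluster 13 and 0.665 in cluster 11, C1qb 1.91 and 0.754, C1qc 1.81 and 0.722, and their sum 1.90 and 0.719 in the same clusters. C3ar1 had a ratio of 1.57 in monocyte-like cluster 4 and 0.490 in cluster 14, which rests on 26 UMIs in KO and 35 UMIs in WT. After thinning, the share of cluster 4 cells with a C3ar1 UMI was 4.92% in KO and 5.04% in WT. Axl had a ratio of 1.14 in cluster 6 and 0.647 in cluster 11. Cd93 had a ratio of 1.54 in cluster 6 and 0.595 in cluster 4. The level of C1qa in near-empty barcodes also differed between the matrices, at 494 CPM in KO and 350 CPM in WT, and its part in these ratios was not tested.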

How the results depend on the processing

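Across the bulk alternatives 3991 to 5127 genes were called, beside 4874, and 7 to 9 members, beside 8. Leaving out 1 library gave 3991 to 4587 genes, 7 to 8 members and 47 to 51 called pathway genes, beside 52 with all libraries. These need not be the same genes. The replicate block gave 4691 genes and 51 pathway genes. Library totals alone turned C1qa to 0.048 and ended the calls of C1qb and C1qc. C1qa was also called by limma-voom (adjusted p = 0.04784) and by edgeR without WT replicate 3 (0.04512). Without any filter on low counts the median over all genes moved to 0.1349. In single cells, the C1q ratio over macrophage-like cells of 1.28 became 1.06 with a looser cell filter, 1.22 at resolutions 0.5 and 2, 1.26 with the members kept in the clustering, and, in alternatives chosen after seeing the data, 1.24 with unnamed clusters added and 1.18 with each cell weighted equally. The monocyte-like C1q ratio ran from 0.556 to 1.19. With the looser filter the ratio of Cd93 turned to 0.937, and the cluster led by Ccl12, Vcam1 and Cadm1 was unnamed there. Members with a peak numbered 0 at 1 kb around the start, beside 4, since that window is narrower. The cause of the other changes was not tested. Counting error limits Gas6 and the Mertk of monocyte-like, T cell-like and fibroblast-like cells most, with 4 to 72 UMIs per group and genotype where named.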

Other observations

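Outside macrophages, cDC1-like cells had 175 CPM of C1q in KO and 78.4 CPM in WT, a ratio of 2.23 (counting interval 1.87 to 2.66). These UMIs came from 45 of 183 KO cells (24.6%) and 55 of 239 WT cells (23.0%). C1qb made up 50.1% of the C1q UMIs of cDC1-like cells in KO and 50.5% in WT. This class was cluster 20, led by Plet1, Flt3 and Cd209a, with scores of 0.663 for cDC1 and 0.272 for cDC2. Flt3 and Cd209a were on the cDC2 marker list, so the cluster may hold both types. The 40 KO and 33 WT B cell-like cells held 225 C1q UMIs in KO and 17 in WT, in 11 KO and 7 WT cells. The 97 KO C1qb UMIs came from 5 cells. In the T cell-like cluster 3, led by Itgb8 and Foxp3, Axl had 20.7 CPM in KO and 27.6 CPM in WT. C1qb had 15.3 CPM in KO and 11.4 CPM in WT in the same cluster. Near-empty barcodes held 32 CPM of Axl in KO and 39.5 CPM in WT. They held 571 CPM of C1qb in KO and 448 CPM in WT. The source of the Axl UMIs in cluster 3 was not tested. Stab1 had 12.5 CPM in KO and 18 CPM in WT in cluster 3, a ratio of 0.697 (0.504 to 0.961). Stab1 in T cell-like cluster 10, led by Il23r, had 15.2 CPM in KO and 24.3 CPM in WT.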
